A study of Mus musculus with 18 samples.

Results

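The genes Acsl3, Ankle2, Socs5, Megf9, Mgat2, Utp14b, Slc9a7, Rnf168, Mid1 and Ablim1 were followed in sorted cones of WT mouse retinas, over 18 RNA-seq libraries. They were chosen by name from the list of genes that Txnip changed in cones of diseased retinas, where 17 genes are listed as lowered, and were found by Ensembl identifier among the 54532 genes counted. All 10 were detected in every library and all 10 passed the filter on low counts in every comparison. The list of 17 came from retinas not analysed here, but the 10 were picked from it with results of the present libraries known. The first 5 genes, in the order given, stand in the order of their p-values for Txnip in the BALB/c libraries. Counts and medians of the 10 genes in BALB/c are therefore descriptions, and nothing is read from setting them beside all genes. Control retinas received AAV8-SynP136-H2BGFP, a vector for a green histone fusion that marks cone nuclei, and Txnip retinas received that vector together with AAV8-RedO-Txnip, in which the red opsin promoter drives Txnip with some expression in rods. Both were injected in newborn mice. BALB/c retinas were taken at postnatal day 21 (6 control and 6 Txnip libraries) and C57BL/6J retinas at postnatal day 35 (3 control and 3 Txnip libraries). Each library held 1000 cones of 1 retina. Which retinas came from 1 animal is not given in the sources used here, so p-values measure the spread between retinas.

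The 10 genes do not form 1 pathway. Acsl3 activates long-chain fatty acids at the endoplasmic reticulum and on lipid droplets, Mgat2 adds a sugar to N-glycans in the Golgi, and Slc9a7 exchanges sodium or potassium for protons in the trans-Golgi network, so these products act along the secretory pathway. Megf9 is a membrane protein with repeated EGF-like domains that is expressed in the nervous system. Socs5 dampens cytokine and growth factor receptor signalling, while Rnf168 and Mid1 are ubiquitin ligases, the former at DNA breaks and the latter on microtubules. Ankle2 helps to rebuild the nuclear envelope after mitosis, Utp14b is a retrocopy of the ribosome assembly gene Utp14a, and Ablim1 links LIM domains to actin filaments. Txnip, the gene delivered, binds thioredoxin and restrains glucose uptake.

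Txnip itself separated the groups, with 0 to 1.48 CPM (counts scaled to 1000000 pairs, on library sizes adjusted by TMM) in BALB/c control cones and 1027 to 1414 CPM in BALB/c Txnip cones. The C57BL/6J controls had 0 to 0.36 CPM of Txnip and the C57BL/6J Txnip libraries 821 to 1969 CPM. Totals were 647712 to 5172156 counted pairs per library, and a list of 12 cone genes held 3.50% to 9.49% of the pairs in each. The share of pairs on the ribosomal RNA locus of chromosome 17 was 11.99% to 16.3% in BALB/c Txnip cones and 14.98% to 15.7% in BALB/c controls 1, 3 and 6, but 8.70%, 6.07% and 6.00% in BALB/c controls 2, 4 and 5. It ran from 3.27% to 27.5% over the C57BL/6J libraries. Rod genes without Sag, which cones also express, held 1.41% of the pairs in C57BL/6J control 1 and 0.978% in C57BL/6J Txnip 2, against 0.110% to 0.285% in the other 16 libraries. In such bulk samples more cells of a type and more RNA per cell cannot be told apart.

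Levels between genes were compared per kilobase of exon. Megf9 had the highest mean over the 18 libraries, 20.5 CPM per kilobase, followed by Acsl3 with 18.6 and Socs5 with 17.2. Ankle2 (5.84) and Mid1 (5.77) lay near the median of the 14751 genes tested in the fit of all libraries, which was 5.21 CPM per kilobase. The lower group ran from Mgat2 (3.64) through Ablim1 (3.21), Slc9a7 (3.00) and Rnf168 (2.36) to Utp14b (1.02). Neighbours in this order had overlapping ranges over the libraries. The exons of the 10 genes spanned 2614 bases in Mgat2 to 11949 bases in Ablim1, and 8 of the 10 were longer than the median tested gene of 4083 bases. Of this lower group Ablim1 had 14 to 257 pairs per library, and the counts of the other 4 were smaller. Utp14b had 2 to 65 pairs per library, Slc9a7 3 to 79, Mgat2 3 to 96 and Rnf168 6 to 73, whereas Megf9 had 52 to 996.

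**Figure D1:**
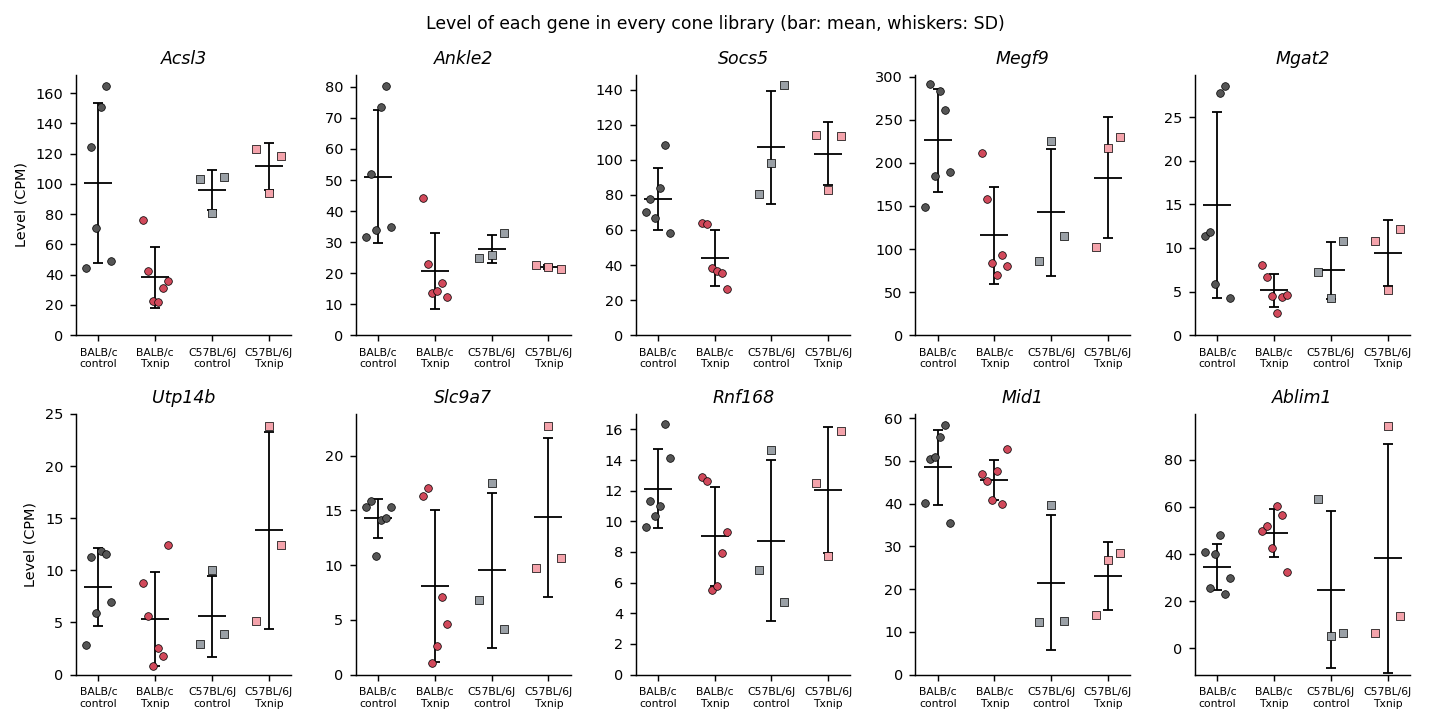
Level of each gene in every library, in CPM on the y axis, with 1 point per library, circles for BALB/c, squares for C57BL/6J, a bar at the group mean and whiskers of 1 SD. In BALB/c, Acsl3 averaged 101 CPM in control and 38.3 CPM in Txnip cones, and the 2 highest Ablim1 points, 94.3 and 63.4 CPM, are single C57BL/6J libraries.

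Acsl3 (ENSMUSG00000032883, chr1:78657825-78707743, plus strand, GRCm38) and Utp14b (ENSMUSG00000079470, chr1:78658038-78671512, plus strand) share a locus. Utp14b lies inside the span of Acsl3 on the same strand, and their exons share 244 bases in 3 blocks that code for neither protein. The coding part of Utp14b, 2340 bases at chr1:78664387-78666726, is outside those blocks. A pair on shared bases was counted for both genes, and reads of Utp14b may also resemble its parent Utp14a. The RefSeq starts of Acsl3 and Utp14b are 615 bases apart. The 250 bases before each of these starts are shown because the genes are neighbours, beside those of Ankle2 (ENSMUSG00000029501, chr5:110231004-110256651, plus strand), the member most correlated with Acsl3 across libraries. Sequences are from RefSeq on GRCm38.p6, plus strand, 5′ to 3′, at chr1:78657575-78657824, chr1:78658190-78658439 and chr5:110230754-110231003. Capitals mark 3 motifs on either strand, which are the GC box with the letters GGGCGG, the box named after its letters CCAAT, and the E-box with the letters CACGTG.
Acsl3: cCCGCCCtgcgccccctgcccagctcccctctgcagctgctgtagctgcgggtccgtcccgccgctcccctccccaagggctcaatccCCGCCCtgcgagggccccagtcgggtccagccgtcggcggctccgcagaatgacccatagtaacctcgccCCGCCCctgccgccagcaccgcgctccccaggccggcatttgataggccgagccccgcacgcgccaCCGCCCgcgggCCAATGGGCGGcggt
Utp14b: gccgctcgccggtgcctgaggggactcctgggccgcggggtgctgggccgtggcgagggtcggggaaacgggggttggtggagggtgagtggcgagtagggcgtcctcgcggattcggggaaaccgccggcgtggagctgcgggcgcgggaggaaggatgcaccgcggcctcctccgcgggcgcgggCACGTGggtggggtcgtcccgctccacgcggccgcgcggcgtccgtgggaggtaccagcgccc
Ankle2: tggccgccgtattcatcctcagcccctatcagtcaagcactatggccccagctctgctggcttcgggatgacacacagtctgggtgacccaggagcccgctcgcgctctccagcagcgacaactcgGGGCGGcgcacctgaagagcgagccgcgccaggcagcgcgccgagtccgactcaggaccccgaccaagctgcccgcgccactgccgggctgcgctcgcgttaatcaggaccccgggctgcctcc

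The Acsl3 window held 5 GC boxes and 1 CCAAT box, the last of which directly precedes a GC box with no overlap, and the Utp14b window held 1 E-box. The Ankle2 window held 1 GC box. Of 32851 windows of this length, 32.7% held a GC box, 33.8% a CCAAT box and 6.02% an E-box. GC content was 75.6% for Acsl3, 77.2% for Utp14b and 68.8% for Ankle2, against a median of 52.4% over all windows. These matches describe letters in the windows and are not evidence of binding. Windows were found for 9 of the 10 genes.

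Acsl3, the fatty acid activating enzyme, had 44.2 to 165 CPM in control cones of BALB/c (median 97.8, n = 6) and 21.8 to 76.2 CPM in BALB/c Txnip cones (median 33.3, n = 6). In C57BL/6J it had 103, 80.9 and 104 CPM in the controls and 123, 93.95 and 118 CPM in the Txnip libraries. In BALB/c, 5 of 6 Txnip libraries lay below every control and replicate 1 lay within the controls, while the C57BL/6J groups overlapped. The log2 difference of Txnip from control was -1.34 ± 0.33 (SE) in BALB/c, adjusted p = 0.112 by the edgeR quasi-likelihood test, and 0.21 ± 0.20 in C57BL/6J, adjusted p = 1.00.

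Mgat2 (ENSMUSG00000043998, chr12:69184157-69186770, plus strand), the N-glycan enzyme, is a gene of 1 exon whose coding bases share 58 bases with the antisense gene Gm49383. Gm49383 had 1.125 to 9 times the counts of Mgat2, and counting did not separate strands. Mgat2 had 4.27 to 28.6 CPM in control cones of BALB/c (median 11.6) and 2.57 to 8.03 CPM in BALB/c Txnip cones (median 4.56). All 6 Txnip libraries were below the control median, 1 was below every control, and the largest fitted value of the 10 genes in BALB/c, a log2 difference of -1.45 ± 0.43, came with an adjusted p of 0.187. In C57BL/6J the controls had 7.20, 4.30 and 10.8 CPM and the Txnip libraries 10.9, 5.14 and 12.2 CPM, which overlapped.

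Slc9a7 (ENSMUSG00000037341, chrX:20105754-20291807, minus strand), the Golgi proton exchanger, had 10.9 to 15.8 CPM in control cones of BALB/c (median 14.8) and 1.06 to 17.1 CPM in BALB/c Txnip cones (median 5.86). The Txnip libraries lay on either side of the controls: replicates 1 and 2, at 16.3 and 17.1 CPM, were above every control, and the other 4, at 1.06 to 7.08 CPM, below every control. The log2 difference was -0.70 ± 0.43, adjusted p = 0.547. In C57BL/6J it had 6.84, 17.5 and 4.16 CPM in controls and 9.77, 22.8 and 10.6 CPM in Txnip cones.

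Megf9 (ENSMUSG00000039270, chr4:70427065-70534995, minus strand), the EGF-domain membrane protein, shares no exon with another gene. It had 148 to 291 CPM in control cones of BALB/c (median 225) and 70.0 to 211 CPM in BALB/c Txnip cones (median 88.2). Txnip replicates 1 and 2, at 211 and 158 CPM, lay among the controls and the other 4 lay below every control. The log2 difference was -0.92 ± 0.23, adjusted p = 0.112. The C57BL/6J groups overlapped, with 86.5, 226 and 116 CPM in controls and 102, 217 and 229.8 CPM in Txnip cones.

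Socs5 (ENSMUSG00000037104, chr17:87107679-87137583, plus strand), the brake on receptor signalling, had 58.2 to 109 CPM in control cones of BALB/c (median 73.9) and 26.3 to 63.8 CPM in BALB/c Txnip cones (median 37.5). All 6 Txnip libraries were below the control median and 4 were below every control. The log2 difference was -0.74 ± 0.19, adjusted p = 0.112. In C57BL/6J, Socs5 had 80.3, 98.5 and 143 CPM in controls and 114, 82.9 and 114 CPM in Txnip cones, a log2 difference of -0.05 ± 0.25.

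Rnf168 (ENSMUSG00000014074, chr16:32277459-32301434, plus strand), the ligase that ubiquitinates histone H2A near DNA breaks, had 9.63 to 16.4 CPM in BALB/c control and 5.53 to 12.9 CPM in BALB/c Txnip cones. The groups overlapped, with 4 Txnip libraries below every control and 2 above the control median, and the log2 difference was -0.43 ± 0.26, adjusted p = 0.533. In C57BL/6J it had 6.84, 14.7 and 4.71 CPM in controls and 12.5, 7.71 and 15.9 CPM in Txnip cones.

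Mid1 (ENSMUSG00000035299, chrX:169685199-170005736, plus strand), the microtubule-bound ligase that targets a phosphatase subunit of the PP2A family, spans the boundary of the pseudoautosomal region in laboratory mice, so part of its exons has a copy on the Y chromosome. Of its exon bases, 17.9% lie opposite antisense transcripts, of which Gm15726 had the most counts, 0.106 to 0.267 times those of Mid1. Mid1 had 35.5 to 58.4 CPM in BALB/c control and 39.8 to 52.7 CPM in BALB/c Txnip cones, and the Txnip range lay inside that of the controls. The C57BL/6J levels were lower, 12.2, 39.7 and 12.5 CPM in controls and 13.8, 26.8 and 28.4 CPM in Txnip cones. The log2 difference of Txnip from control was -0.10 ± 0.13 in BALB/c (95% interval -0.38 to 0.18) and 0.10 ± 0.50 in C57BL/6J.

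Ankle2, the nuclear envelope protein, has 198 exon bases opposite the antisense transcript Gm43137, which had at most 0.227 times its counts. It had 31.7 to 80.4 CPM in control cones of BALB/c (median 43.4) and 12.4 to 44.3 CPM in BALB/c Txnip cones (median 15.5). Replicate 1 of the Txnip group lay within the controls and the other 5 lay below every control, with a log2 difference of -1.19 ± 0.30, adjusted p = 0.112. In C57BL/6J the controls had 24.9, 25.8 and 33.0 CPM and the Txnip libraries 22.5, 22.02 and 21.5 CPM. These groups did not overlap, but the log2 difference of -0.34 ± 0.24 had an adjusted p of 1.00.

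Utp14b, the ribosome assembly retrocopy, had 2.83 to 11.9 CPM in control cones of BALB/c (median 9.15) and 0.851 to 12.4 CPM in BALB/c Txnip cones (median 4.07). The Txnip libraries spanned the whole control range, with 3 below and 1 above every control, and the log2 difference was -0.82 ± 0.46, adjusted p = 0.513. In C57BL/6J it had 2.88, 10.02 and 3.88 CPM in controls and 5.15, 23.9 and 12.5 CPM in Txnip cones, a log2 difference of 1.30 ± 0.66, adjusted p = 1.00. For the parent gene Utp14a the log2 difference was -0.06 in BALB/c (adjusted p = 0.940), while that in C57BL/6J was 0.53 (adjusted p = 1.00).

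Ablim1 (ENSMUSG00000025085, chr19:57032733-57314919, minus strand), the actin-binding LIM protein, was the single member with a higher fitted level in BALB/c Txnip cones. It had 23.2 to 48.0 CPM in controls (median 34.8) and 32.5 to 60.4 CPM in Txnip cones (median 50.8), so the groups overlapped although 4 Txnip libraries lay above every control. The log2 difference was 0.53 ± 0.18, adjusted p = 0.244. In C57BL/6J, Ablim1 had 63.4 CPM in control 1 against 5.01 and 6.38 CPM in controls 2 and 3, and 94.3 CPM in Txnip 2 against 6.51 and 13.6 CPM in Txnip 1 and 3. The libraries with high Ablim1 were those with high rod shares, and the log2 difference between the C57BL/6J groups was 0.62 ± 1.10.

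The comparison of Txnip with control cones in each strain asks whether the delivered gene changed these transcripts in WT cones. In BALB/c, 0 of the 10 genes passed an adjusted p of 0.05 in the edgeR fit, where 0.0166% of 12017 genes did, and 0 of 10 had groups that did not overlap, against 0.699% of all genes. At an unadjusted p under 0.05 there were 6 of 10, a count that the choice of the genes may have raised, where 11.4% of all genes had one: Acsl3, Ankle2, Socs5, Megf9 and Mgat2 with lower and Ablim1 with higher values. DESeq2 called Ankle2 and Socs5 lower, with log2 differences of -1.26 and -0.78 and adjusted p = 0.0381 and 0.0472, where 0.666% of all genes passed. With every gene of at least 1 count in the edgeR fit, 6 members passed, Acsl3, Ankle2, Socs5, Megf9 and Mgat2 with lower and Ablim1 with higher values. Of all genes 3.42% passed in that fit, 1235 lower and 165 higher. Fitted differences were below 0 for 9 of the 10, with a median of -0.78 against 0.00 over all genes tested. The other 7 lowered genes of the list had 0 calls, 5 values below 0 and a median of -0.42, from -1.07 ± 0.37 for Ccny to 0.16 ± 0.12 for Gprasp1. The 7 raised genes other than Txnip had 0 calls and a median of 0.02.

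The BALB/c values moved with a few libraries. Without BALB/c Txnip replicate 1, the 1 library whose omission changed a call in BALB/c, Acsl3, Ankle2, Socs5 and Megf9 passed, with log2 differences of -1.75, -1.65, -0.89 and -1.20 and adjusted p = 0.00684, 0.00416, 0.0150 and 0.00416, while 2.13% of all genes did. BALB/c controls 2, 4 and 5, the libraries with low shares of ribosomal RNA, stood above the other 3 controls for 6 of the 10 genes, against 11% of all genes: Acsl3 (125 to 165 CPM against 44.2 to 71.0), Ankle2, Socs5, Megf9, Mgat2 and Utp14b. Controls 4 and 5 also had the most genes with a count, 29629 and 29401, against 16914 to 24007 in the other BALB/c libraries. With those 3 controls left out, the log2 difference was -0.46 ± 0.30 for Acsl3, -0.58 ± 0.30 for Ankle2, -0.47 ± 0.20 for Socs5, -0.54 ± 0.25 for Megf9 and -0.30 ± 0.40 for Mgat2, and 0 of 10 passed. With the log2 share of ribosomal RNA as a covariate these values were -0.55, -0.61, -0.49, -0.62 and -0.32. A list of 7 amacrine cell genes also moved with the groups, at 0.0379% to 0.0518% of the pairs in the BALB/c Txnip libraries and 0.0279% to 0.0362% in the BALB/c controls, which did not overlap. Of the 5 amacrine cell genes tested in BALB/c, 0 passed in edgeR and 2 had an unadjusted p under 0.05. Within the 12 BALB/c libraries, with group means removed, their share had r of -0.80 with Acsl3, -0.78 with Ankle2, -0.72 with Megf9 and -0.64 with Socs5. The parts of RNA quality and of RNA from other cells in the BALB/c differences were not tested.

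**Figure D2:**
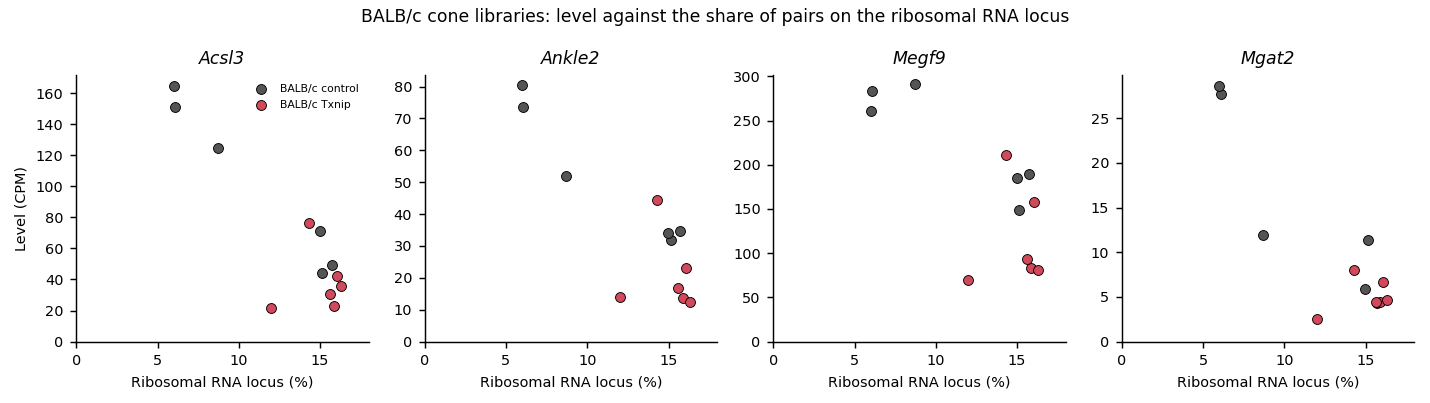
Levels of Acsl3, Ankle2, Megf9 and Mgat2 in CPM on the y axes against the percentage of pairs on the ribosomal RNA locus on the x axes, with 1 point for each of the 12 BALB/c libraries. The 3 control points at 6.00% to 8.70% are above the other 3 control points in each panel.

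In C57BL/6J, 0 of the 10 genes passed in the edgeR fit, where 0.0154% of 12974 genes did, 0 of 10 had an unadjusted p under 0.05 against 0.748% of all genes, and DESeq2 called 0. Ankle2 was the 1 member whose groups did not overlap, against 4.42% of all genes. Values were above 0 for 8 of the 10, with a median of 0.35 against 0.01 over all genes. With 3 libraries per group and wider spread than in BALB/c, a count of 0 here does not show that the genes were unchanged. The 95% interval of Acsl3 was -0.24 to 0.66, that of Ankle2 -0.88 to 0.19 and that of Ablim1, the widest, -1.86 to 3.096. The other 7 lowered genes had 0 calls and a median of 0.15.

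The difference of the Txnip effect between the strains was tested in 1 fit of the 4 groups, and 0 of the 10 genes passed in edgeR, as did 0% of 14751 genes. DESeq2 also called 0. Values were above 0 for all 10, so that each fitted Txnip effect was higher in C57BL/6J, and 5 had an unadjusted p under 0.05, where 4.79% of all genes had one: Acsl3 (1.57 ± 0.53), Megf9 (1.29 ± 0.48), Mgat2 (1.81 ± 0.72), Utp14b (2.09 ± 0.86) and Socs5 (0.71 ± 0.34). With BALB/c controls 2, 4 and 5 left out, the values of these 5 genes were 0.69, 0.92, 0.70, 1.45 and 0.45, in the same order. Without the C57BL/6J libraries of high rod share, Utp14b was at 1.18 and Megf9 at 0.90. This difference contains the BALB/c Txnip effect known when the genes were picked, so nothing is read from its count or from the shared sign. Strain and age cannot be told apart in it.

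**Figure D3:**
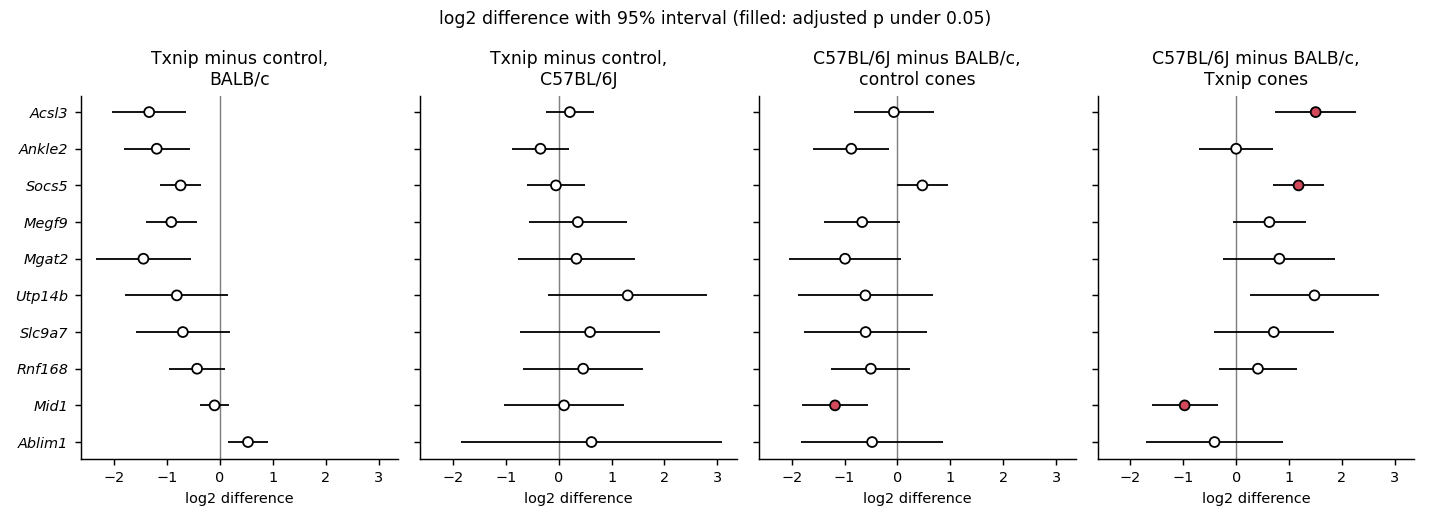
Fitted log2 difference of each gene on the x axes in 4 comparisons, with 95% intervals as lines and filled points for an adjusted p under 0.05. Filled points are Mid1 in control cones (-1.18) and Acsl3 (1.501), Socs5 (1.18) and Mid1 (-0.98) in Txnip cones, all in the comparison of C57BL/6J with BALB/c.

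The C57BL/6J and BALB/c cones differed by strain and by age, which cannot be told apart, and C57BL/6J mice also lack functional Nnt, a mitochondrial enzyme. In control cones 1 of the 10 genes passed, where 17.5% of all genes did. This was Mid1, which averaged 48.5 ± 8.86 CPM (SD, n = 6) in BALB/c and 21.5 ± 15.8 CPM (SD, n = 3) in C57BL/6J, a log2 difference of -1.18 ± 0.30 with an adjusted p of 0.00900. The Mid1 groups overlapped through C57BL/6J control 2. None of the 10 genes had groups that did not overlap, against 18.6% of all genes. The Mid1 call was lost without C57BL/6J control 1 (adjusted p = 0.0528), without C57BL/6J control 3 (adjusted p = 0.0809) and without BALB/c controls 2, 4 and 5 (adjusted p = 0.0924), with values of -0.92, -0.89 and -0.97. Ankle2 (-0.87 ± 0.35, adjusted p = 0.0861), Megf9 (-0.67 ± 0.35) and Mgat2 (-0.99 ± 0.51) did not pass, although Megf9 did without C57BL/6J control 2 (-1.18, adjusted p = 0.0373).

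In Txnip cones, 3 of the 10 genes passed, where 17.6% of all genes did. Acsl3 averaged 38.3 ± 20.1 CPM (SD, n = 6) in BALB/c and 112 ± 15.5 CPM (SD, n = 3) in C57BL/6J and was higher by 1.501 ± 0.37 on the log2 scale, adjusted p = 0.00604. Socs5 averaged 44.0 ± 15.8 and 104 ± 17.9 CPM and was higher by 1.18 ± 0.23, adjusted p = 0.00107. Mid1 averaged 45.5 ± 4.73 and 23.0 ± 7.98 CPM and was lower, with a log2 difference of -0.98 ± 0.30 and an adjusted p of 0.0269. For these 3 genes the groups did not overlap, against 17.9% of all genes. The call of Mid1 was lost without C57BL/6J Txnip replicate 1 (-0.72, adjusted p = 0.147), and without that library Utp14b passed (1.87, adjusted p = 0.0424, against 1.48 ± 0.59 and 0.0882 with it). The BALB/c Txnip libraries stand in this comparison and in that with the BALB/c controls, so the values of Acsl3 and Socs5 in both rest on the same libraries. The BALB/c Txnip effect was known when the genes were picked. Nothing is therefore read from the count of 3 or from the sign of Acsl3 and Socs5.

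The difference of Ablim1 between the strains turned on the C57BL/6J libraries with high rod shares. Over all libraries its log2 difference was -0.48 ± 0.65 in control and -0.41 ± 0.63 in Txnip cones. Without C57BL/6J control 1 the value in control cones was -2.58, adjusted p = 0.0132, and without C57BL/6J Txnip replicate 2 the value in Txnip cones was -2.28, adjusted p = 0.0146. With both left out the adjusted p values were 1.45e-05 and 1.96e-05. Across the 18 libraries, with group means removed, Ablim1 and the rod share on log2 scales had a Pearson r of 0.91 and a Spearman rho of 0.70, and r was 0.26 within BALB/c (n = 12), 0.96 within C57BL/6J (n = 6) and 0.75 without the 2 libraries farthest from the median rod share. In C57BL/6J control 1 and Txnip 2, Müller glia genes held 0.0970% and 0.0696% of the pairs, against 0.00671% to 0.0263% in the other libraries, and pigment epithelium genes 0.0146% and 0.00939%, against at most 0.00294%. The share of 6 ganglion cell genes also moved with Ablim1, with r of 0.75 and rho of 0.85 over the 18 libraries, r of 0.88 within BALB/c, 0.80 within C57BL/6J and 0.56 without the 2 farthest libraries. That share was 0.0328% to 0.103% in BALB/c and 0.00131% to 0.00907% in C57BL/6J, and all 6 ganglion cell genes were lower in C57BL/6J control cones, with a median log2 difference of -3.69. The parts of rod and ganglion cell RNA in the Ablim1 values were not tested.

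**Figure D4:**
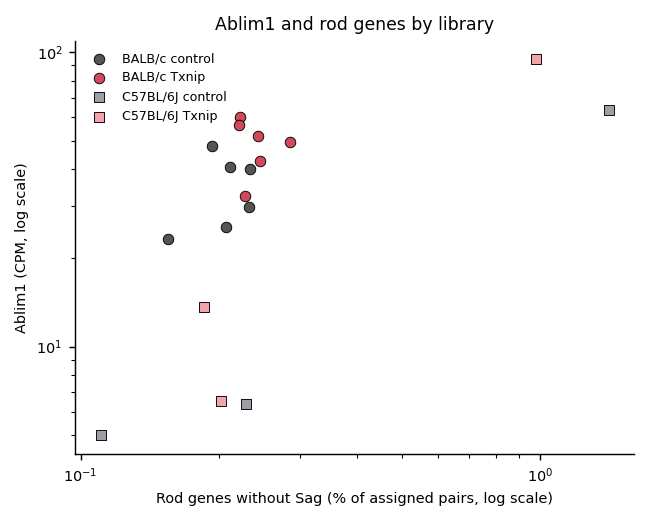
Ablim1 in CPM against the percentage of pairs on rod genes other than Sag, both axes on log scales, with 1 point per library. C57BL/6J control 1 (1.41%, 63.4 CPM) and C57BL/6J Txnip 2 (0.978%, 94.3 CPM) stand apart from the other 4 C57BL/6J libraries, which have 5.01 to 13.6 CPM.

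The shared variation of the 10 genes was described with Pearson r of log2 CPM over the 18 libraries after the mean of each group was removed. Libraries of a strain share age but differ in depth and in the ribosomal RNA share. The median over the 45 pairs was 0.38, and 17 pairs (37.8%) had r over 0.5, against 6.96% of all pairs of a member with another tested gene. The genes were picked with BALB/c results known, which may have raised this share, so nothing is read from that comparison. Within BALB/c the median was 0.58 and within C57BL/6J -0.17. Acsl3, Ankle2, Socs5 and Mgat2 had r of 0.64 to 0.89 with each other. The closest pair was Acsl3 and Ankle2 (r 0.89, rho 0.88, 0.85 without the 2 farthest libraries), with 0.91 within BALB/c and 0.30 within C57BL/6J. Acsl3 and Mgat2 had r of 0.78, with 0.80 and 0.94 within the strains. Megf9, Utp14b, Slc9a7 and Rnf168 had r of 0.49 to 0.70 with each other, and Megf9 and Utp14b kept 0.60 and 0.92 within the strains.

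Acsl3 and its neighbour Utp14b had an r of 0.54, but 0.74 within BALB/c and -0.92 within C57BL/6J. The pairs on their shared bases cannot be told apart in these counts. Megf9 and Acsl3 also went opposite ways, with 0.87 within BALB/c and -0.76 within C57BL/6J. The ribosomal RNA share had r of -0.70 with Acsl3 and -0.75 with Mgat2 within BALB/c, and -0.85 and -0.63 within the 6 C57BL/6J libraries. The sign differed between the strains for Mid1, with -0.72 in BALB/c and 0.95 in C57BL/6J, for Megf9, with -0.41 and 0.98, and for Utp14b, with -0.38 and 0.95, as it did with smaller values for Rnf168 (-0.11 and 0.42) and Ablim1 (0.071 and -0.10). Ablim1 stood apart, with r from -0.40 to 0.13 against the other 9 genes and below 0 for 8 of them.

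**Figure D5:**
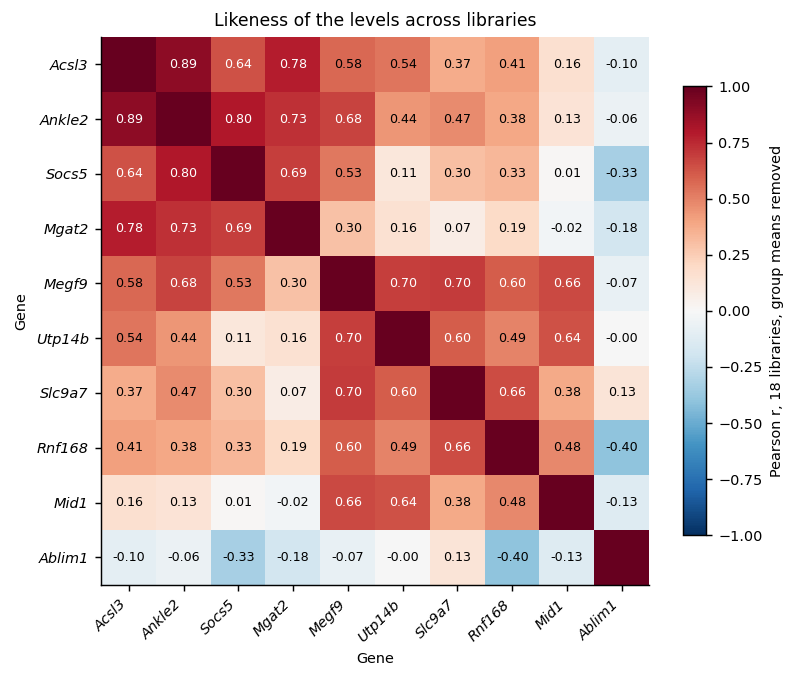
Pearson r of log2 CPM for each pair of the 10 genes over 18 libraries with group means removed, in colour and as numbers. The block of Acsl3, Ankle2, Socs5 and Mgat2 holds values of 0.64 to 0.89, and the row of Ablim1 holds values of -0.40 to 0.13.

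Among genes at or above the median mean level, the one most like Acsl3 was Uvrag (r 0.94 over 18 libraries), an autophagy and endosome gene, followed by Lamp1 (0.94), a lysosomal membrane protein. Atp2c1 (0.93), a Golgi calcium and manganese pump, was among the genes most like Ankle2, and Socs5 was most like Mtx2 (0.92), a mitochondrial import protein. Megf9 was most like Nf2 (0.87), Mgat2 most like Gm49496 (0.90) and Utp14b most like Hook1 (0.85). Slc9a7 was most like Rbm45 (0.88) and Rnf168 most like Ctdspl2 (0.79), the weakest of these. Mid1 was most like the clock gene Per1 (0.92), with 0.69 within BALB/c and 0.98 within C57BL/6J. Ablim1 was most like Gnb1 (0.95), the beta subunit of rod transducin, with 0.40 within BALB/c and 0.99 within C57BL/6J.

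The genes around the members were counted by family. Against Txnip, 0 genes of the 10 family lists passed in either strain. Between the strains, 8.03% of all genes were called higher and 9.52% lower in C57BL/6J control cones, and 8.24% higher and 9.38% lower in C57BL/6J Txnip cones, which is the background for the counts that follow. In the lists of acyl-CoA synthetases and fatty acid transport proteins, 9 of 15 genes were tested between the strains, and in control cones Acsl1 (-0.80 ± 0.16, adjusted p = 0.00148) and Acsl4 (-1.72 ± 0.50, adjusted p = 0.0200) were lower in C57BL/6J. Per kilobase Acsl1 (22.6 CPM), Slc27a1 (20.6 CPM) and Acsl6 (20.3 CPM) were at levels like that of Acsl3, and in Txnip cones Acsl6 was higher in C57BL/6J (0.43 ± 0.14, adjusted p = 0.0344), as were Acsl3 and Slc27a4, while Acsl1 and Acsl5 were lower. Of 18 N-glycan processing genes, Mgat5 was higher and Mgat4a lower in C57BL/6J control cones, and Mgat1, which acts before Mgat2, did not pass (0.10, adjusted p = 0.633). Of 7 tested SLC9 exchangers and their regulators, Slc9a5 and Slc9a3r1 were higher in C57BL/6J control cones and 0 were lower, and of 4 tested MEGF genes Megf11 was lower.

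Of 15 tested genes of the SOCS family and the proteins it acts with, Socs7 was higher in C57BL/6J control cones (1.17 ± 0.17) and also in Txnip cones, where Socs5 and Cul5 were higher and Stat3 lower. Of 12 tested genes around MID1 and PP2A, 4 were lower in C57BL/6J control cones: Mid1, its partner Mid1ip1 (-0.68 ± 0.18, adjusted p = 0.0109), Ppp2r5c (-0.93 ± 0.16, adjusted p = 0.000212) and the related ligase Trim36 (-2.79 ± 0.59, adjusted p = 0.00178). In Txnip cones these 4 and Trim46 were lower. Among 18 tested genes of the RNF8 and RNF168 response, Uimc1 and Abraxas1 were higher and 0 were lower in C57BL/6J control cones. Of 25 tested genes of the small subunit processome, Utp3 and Wdr75 were higher. Of 14 tested genes around BAF and the nuclear envelope, Lmna was lower in both comparisons of the strains (-1.68 ± 0.30 and -2.08 ± 0.31). Among 7 tested actin-binding LIM genes, Ablim3 and Dmtn were lower in C57BL/6J control cones, with Dmtn at -2.50 ± 0.36.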

How the data were processed

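RNA of 1000 sorted cones per retina was amplified by a modified Smart-Seq2 protocol and sequenced as pairs. The authors used featureCounts 1.6.2 to assign pairs to Ensembl 94 exons (GRCm38), gene by gene, and deposited these counts without normalization, 1 table per library. Their command used no strand and counted a pair for each gene it overlapped. STAR is named in the submitters' processing notes. Tables of the authors' own comparisons, which hold DESeq2 fold changes and p-values, were not used.

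Counts were fitted with edgeR 4.0.16 in R 4.3.3: filterByExpr, TMM, glmQLFit, glmQLFTest, Benjamini-Hochberg adjustment over all genes tested and a threshold of 0.05. The Txnip effect was fitted within each strain, and strain differences and the difference of effects in 1 fit of the 4 groups. SE is the absolute log2 difference over the square root of F. Levels are TMM-scaled CPM, and log2 levels for correlations used a prior count of 2. The fits were tested on simulated counts. Alternatives were DESeq2 1.42.0, other scalings, filters and thresholds, the replicate number as a block, single libraries left out, and, added after seeing the data, the ribosomal RNA share as a covariate and libraries of extreme ribosomal RNA or rod share left out.

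Replicate numbers did not pair the libraries: same-numbered Txnip and control libraries had correlated deviations of -0.108 to 0.0993. The 36 pairs of libraries within groups differed beyond sampling noise. Depth was 647712 to 5172156 pairs, and the shares of the ribosomal RNA locus and of rod genes differed between libraries by more than counting error. The members and lists were chosen with earlier results of these data known. The text names the 10 members, genes sharing their exons, the rest of the study's list, family members past the threshold or high in level, and genes most like each member, of which a few are not reported here. List symbols without a match numbered 3.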

Additional observations from a re-analysis of the deposited data

Results flagged for a closer look

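A library far from the rest of its group was found in 2 of 20 checks of the members in the BALB/c groups of 6, where chance flags about 1 in 20. Ankle2 had 44.3 CPM in BALB/c Txnip replicate 1 against 12.4 to 23.0 CPM in the other 5 Txnip libraries. This is the library without which Ankle2 passed the test in BALB/c. Slc9a7 had 10.9 CPM in BALB/c control replicate 3 against 14.1 to 15.8 CPM in the other 5 controls.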

How the results depend on the processing

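For Txnip in BALB/c the edgeR fit called 0 members, where 0.0166% of all genes passed. DESeq2 called 2 (0.666% of all genes), and the fit of all genes with at least 1 count called 6 (3.42%). Leaving out 1 library each gave 0 to 4 (0.0163% to 2.13%). In control cones the count between the strains was 1, where 17.5% of all genes passed. It was 3 with all genes of at least 1 count (6.27%) and 0 without the BALB/c controls of low ribosomal RNA share (10.4%). Without the C57BL/6J libraries of high rod share it was 2 (17.6%). At a threshold of 0.1 it was 2, where 3605 of 14751 genes passed. With 1 library left out it was 0 to 2 (10.4% to 16.9%). In Txnip cones the count was 3, where 17.6% of all genes passed. It was 5 with all genes of at least 1 count (6.03%) and 3 to 4 with 1 library left out (11.9% to 18.7%). Ablim1 passed as well without the C57BL/6J libraries of high rod share, where 20.3% of all genes did. At a threshold of 0.1 Utp14b passed as well, where 3452 of 14751 genes did. For the difference of effects the count was 0, where 0% of all genes passed, and 2 with all genes of at least 1 count (0.425%). The median correlation of 0.38 was 0.58 within BALB/c, -0.17 within C57BL/6J and 0.26 to 0.47 with 1 library left out. In each case the cause was not tested.

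Signs turned for values that did not pass. For Mid1 the BALB/c effect became 0.095 with the ribosomal RNA covariate and 0.11 without the controls of low share. Without the libraries of high rod share the C57BL/6J effects were -0.053 for Megf9, -0.10 for Slc9a7 and -0.31 for Mid1. Without the controls of low ribosomal RNA share the strain differences in control cones were 0.82 for Acsl3, 0.12 for Mgat2 and 0.029 for Utp14b, and the difference of effects for Mid1 was -0.00215, against -0.17 without the libraries of high rod share. In Txnip cones Ankle2 was at 0.00999 by DESeq2 and 0.00324 with all genes. With 1 library left out, C57BL/6J effects ran from -0.22 to 0.20 for Socs5, -0.19 to 0.90 for Mid1 and -1.32 to 2.73 for Ablim1. Strain differences ran from -0.24 to 0.12 for Acsl3 in control cones, and from -0.16 to 0.41 for Ankle2 and -2.28 to 0.093 for Ablim1 in Txnip cones. Differences of effects ran from -0.088 to 1.00 for Mid1 and -1.81 to 2.16 for Ablim1.

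The replicate number as a block left 0 members called in BALB/c, in C57BL/6J and for the difference of effects, and 1 of 9 numbers correlated best with its own. A minimum of 10 counts in every library left 5 members untested in BALB/c and 1 in C57BL/6J. Over all genes DESeq2 had a median log2 difference of -0.15 in BALB/c. Counts as low as 2 for Utp14b and 3 for Mgat2 and Slc9a7 limit what these genes can show.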

Other observations

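In BALB/c Txnip cones, replicates 1 and 2 were both above each of replicates 3 to 6 for 7 of the 10 genes, Acsl3, Ankle2, Socs5, Megf9, Mgat2, Slc9a7 and Rnf168, where 9.15% of the 12017 genes tested in BALB/c were. Socs5 had 63.5 to 63.8 CPM in these replicates against 26.3 to 38.3 CPM in the others, and Megf9 had 158 to 211 CPM against 70.0 to 92.9 CPM. This pattern was seen in the values and was not tested.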
